A study of Mus musculus with 6 samples.

Results

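A set of 10 genes of blood clotting was followed in embryoid bodies without Tet enzymes: tissue factor (F3), the clotting factors F7, F10, F5 and F2, the fibrinogen chain genes Fga, Fgb and Fgg, antithrombin (Serpinc1) and the fibrinogen-like gene Fgl1. Every probe whose RefSeq accession belongs to 1 of these 10 genes was taken, which gave 16 probes among the 55418 kept on the arrays. The genes were chosen by their scaled log2 signals and background flags on these same arrays, among them the high Fgl1 signal of the knockout lines, so their differences between knockout and WT are given as descriptions without a test. Of the 16 probes, 12 (8 genes) passed the condition for entering the fit over all genes, a signal well above background on each of the 2 arrays of some line. The other 4 probes, 2 each of F7 and Fga, were not well above background on any array.

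The arrays compared embryoid bodies, which are aggregates of differentiating mouse embryonic stem cells, with and without the Tet enzymes that oxidise 5-methylcytosine. There were 6 one-colour Agilent arrays: 2 of the Tet1/2/3 triple knockout line TKO#26 (called TKO_26), 2 of the Tet1/2/3 triple knockout line TKO#29 (TKO_29) and 2 of WT. All lines have a mixed 129/C57BL6 background and none was treated. They were grown without LIF for 10 days, 2 in hanging drops and 8 in suspension. Both arrays of a line are technical replicas according to the series' design text, so the knockout is represented by 2 lines and WT by 1. The p-values below come from limma fits of 6 arrays in 3 groups and compare lines, not genotypes, and the comparisons of both lines share the same WT arrays. With 2 lines against 1, an exact permutation test could not go below p = 0.333.

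Clotting starts when tissue factor at the cell surface binds factor VII and the pair activates factor X. Factor X, with factor V as its cofactor, cuts prothrombin (F2) into thrombin, and thrombin cuts fibrinogen, an assembly of alpha, beta and gamma chains, into the fibrin of a clot. Antithrombin blocks thrombin and factor X. In the adult most of these proteins are secreted by hepatocytes, and in the early embryo the visceral endoderm of the yolk sac makes many of the same serum proteins. Fgl1 encodes hepassocin, a protein secreted by the liver that has a fibrinogen domain but takes no part in forming fibrin.

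The 3 fibrinogen chain genes are neighbours on mouse chromosome 3, yet they gave very different readings on these arrays, so the 250 bases before each of their starts are shown. They come from RefSeq (GRCm38.p6) and read 5′ to 3′ on the strand of the gene, which is the minus strand for Fgb at chr3:83049864-83050113 and the plus strand for Fga at chr3:83025903-83026152 and Fgg at chr3:83007474-83007723. Capitals mark CpGs, the dinucleotides whose methylated cytosine the Tet enzymes oxidise.
Fgb: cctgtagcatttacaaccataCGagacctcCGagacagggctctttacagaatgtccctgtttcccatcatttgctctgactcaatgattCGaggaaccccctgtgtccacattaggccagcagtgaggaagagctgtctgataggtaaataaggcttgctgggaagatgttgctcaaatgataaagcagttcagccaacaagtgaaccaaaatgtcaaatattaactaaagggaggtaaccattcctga
Fga: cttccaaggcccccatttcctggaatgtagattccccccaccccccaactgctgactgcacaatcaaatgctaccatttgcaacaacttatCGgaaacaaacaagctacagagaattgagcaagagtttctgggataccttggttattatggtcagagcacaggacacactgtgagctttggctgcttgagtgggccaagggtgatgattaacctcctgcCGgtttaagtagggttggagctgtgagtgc
Fgg: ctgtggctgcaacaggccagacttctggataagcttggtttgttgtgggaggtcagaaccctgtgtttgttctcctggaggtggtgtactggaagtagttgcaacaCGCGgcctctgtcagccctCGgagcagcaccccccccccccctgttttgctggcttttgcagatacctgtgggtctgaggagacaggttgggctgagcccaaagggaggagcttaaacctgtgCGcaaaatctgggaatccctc

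A promoter window of 300 bases, 250 before and 50 after the start, was listed for 9 of the 10 genes, all but Fgl1. CpG content split F3 from the rest: its window held 32 CpGs, against 3 to 5 in the other 8, and the median of all 32851 windows was 7 (quartiles 3 to 20). A share of 43.6% of all windows held 5 or fewer.

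Signals are given as log2 of the processed signal minus the array's 75th percentile, so that 0 is a bright spot and most of the genes here lie below it. Well above background were 38.4% (TKO_26 replicate 1) to 55.8% (TKO_29 replicate 1) of the spots. The log2 difference between both arrays of a line had an SD of 0.41 for TKO_26, 0.36 for TKO_29 and 0.35 for WT. These SDs were taken over the 19173 probes well above background on every array, so they do not cover the spread of dimmer probes. All arrays lay on 1 slide with the knockout arrays in 1 column and WT in the other, and genotype and place on the slide cannot be told apart. The brighter Tet1 probe differed from WT by -1.02 in TKO_26 and -1.68 in TKO_29, and the Tet2 probes by -1.09 and -1.25 in TKO_26 and -1.90 and -1.50 in TKO_29. The other Tet1 probe differed by -0.08 in TKO_26 and 0.23 in TKO_29, and the 3 Tet3 probes by 1.05, -1.26 and -2.60 in TKO_26 and -0.62, -1.60 and -4.41 in TKO_29. Which of these probes lie inside a deleted stretch is not known here, so these values are no full check of the labels.

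Markers of the cell types that make or use these proteins were read beside the genes. Of 10 hepatocyte markers, 6 (Alb, Cps1, Cyp2e1, Cyp3a11, G6pc and Hpd) were not well above background on any array, 2 entered the fit and 0 were called in both lines. Visceral endoderm markers summed to 10.7 to 11.3 times the array's 75th percentile in TKO_26 and 7.74 to 9.73 in TKO_29, against 17.9 to 21.9 in WT, and 7 of 10 were called lower. The brightest of them, Spink1, was saturated on 4 of the 6 arrays and weighs most in these sums, while the median log2 difference of the 10 was -2.36. Parietal endoderm markers summed to 14.1 to 18.3 in TKO_26 and 10.2 to 13.7 in TKO_29, against 20.7 to 27.1 in WT, with 6 of 10 called lower. Endothelial markers summed to 0.284 to 0.376 in TKO_26 and 0.173 to 0.203 in TKO_29, against 1.71 to 1.89 in WT, with 6 of 8 called lower. Megakaryocyte and platelet markers summed to 0.192 to 0.209 in TKO_26 and 0.170 to 0.176 in TKO_29, against 0.264 to 0.426 in WT. Of these 11 markers, 4 were fitted, 1 was called lower and 1 was well above background on all TKO arrays. Their sums thus rest largely on signals near background. Fewer cells of a type and less RNA per cell cannot be told apart in such bulk samples, and the part of these cell types in the values below was not tested.

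A gene was called when its brightest probe differed from WT by at least 2-fold in the same direction in both lines, each with a Benjamini-Hochberg adjusted p under 0.05 over all 21420 genes and unnamed features in the fit. By this rule 1 of the 10 genes was called lower (Fgb) and 2 higher (Fgl1 and Serpinc1), while 6.59% of all features were called lower and 4.05% higher. On line averages, where each line counts as 1 sample, Fgb and Fgl1 were called, beside 0.752% of the table lower and 0.154% higher. That count was 1 without TKO_26 replicate 1 and 0 without TKO_26 replicate 2, TKO_29 replicate 2 or either WT array. These contrasts chose the genes, and nothing is read from the counts.

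**Figure D1:**
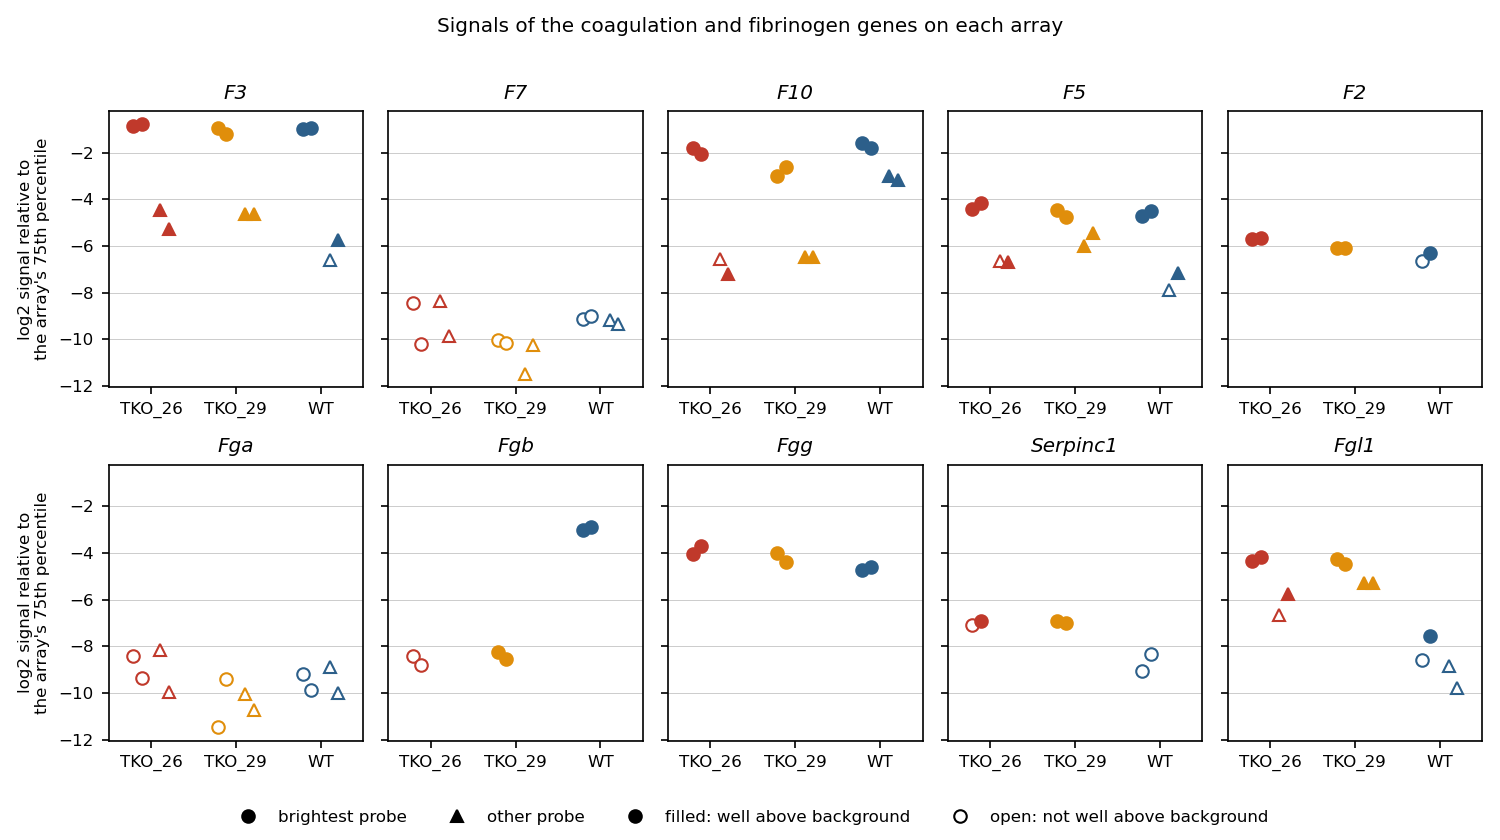
Scaled log2 signal (vertical axis, relative to each array's 75th percentile) of the 10 genes in TKO_26, TKO_29 and WT, 1 point per array. Circles are the brightest probe and triangles the other probe, filled where the spot was well above background; Fgb stands at -8.79 to -8.25 in the TKO arrays and -3.00 and -2.87 in WT, and Fgl1 at -4.47 to -4.18 in the TKO arrays and -8.59 and -7.56 in WT.

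Tissue factor, which starts the cascade, was bright in all lines. Its brightest probe read -0.84 and -0.76 in TKO_26 and -0.94 and -1.21 in TKO_29, against -0.99 and -0.92 in WT. The knockout and WT arrays overlapped, and the differences from WT were 0.16 in TKO_26 and -0.12 in TKO_29. A dimmer F3 probe read -4.45 and -5.26 in TKO_26 and -4.63 on both TKO_29 arrays, against -6.61 and -5.73 in WT, where 1 of the 2 arrays was well above background. That probe was at least 2.49-fold higher in TKO_26 and at least 2.91-fold higher in TKO_29, so the F3 probes disagreed. Such a bound sets the bright line's mean against the mean of, per dim array, whichever is higher of that spot's signal and the dimmest signal counted as well above background.

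F7, the partner of tissue factor, had no reading that could be compared. Its probes lay between -11.51 and -8.36 in the 4 TKO arrays and between -9.33 and -9.02 in WT, none well above background.

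F10, the protease that makes thrombin, depended on the probe. The brightest probe read -1.78 and -2.04 in TKO_26 and -3.02 and -2.63 in TKO_29, against -1.56 and -1.78 in WT. TKO_29 was 2.22-fold lower than WT and TKO_26 1.18-fold lower, with 1 TKO_26 array at the level of the lower WT array. The other probe, which is annotated to a different RefSeq transcript of F10, read -6.56 and -7.22 in TKO_26 and -6.49 on both TKO_29 arrays, against -3.02 and -3.18 in WT. On it the groups were far apart, with TKO_26 at least 12.4-fold lower and TKO_29 10.47-fold lower. Averaging both probes gave a mean difference of -2.14 in place of -0.69 and brought F10 among the called genes.

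F5, the cofactor of factor X, did not separate the lines on its brightest probe, which read -4.43 and -4.15 in TKO_26 and -4.46 and -4.76 in TKO_29, against -4.70 and -4.48 in WT, with overlapping groups. Its dimmer probe read -6.64 and -6.69 in TKO_26 and -5.98 and -5.46 in TKO_29, against -7.87 and -7.14 in WT, or at least 2.49-fold higher in TKO_29. In TKO_26, 1 of the 2 arrays was well above background, and the 1.29-fold calculated in the same way is no strict bound. As with F3, only the dim probe set the groups apart.

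F2, the precursor of thrombin, read -5.71 and -5.65 in TKO_26 and -6.10 and -6.08 in TKO_29, against -6.65 and -6.30 in WT. The TKO arrays all lay above both WT arrays, by at least 1.73-fold in TKO_26 and at least 1.31-fold in TKO_29. These are bounds, since 1 of the 2 WT arrays was well above background, and F2 was not called.

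The fibrinogen chains parted. Fgb, the beta chain, had the lowest log2 difference of the 8 genes fitted. It read -8.40 and -8.79 in TKO_26, neither well above background, and -8.25 and -8.53 in TKO_29, against -3.00 and -2.87 in WT. The log2 differences were -5.66 in TKO_26 and -5.46 in TKO_29 (SE 0.19), and the folds were at least 18.3-fold lower in TKO_26 and 44.0-fold lower in TKO_29. The value for TKO_26 is a bound, so these folds set no order between the lines.

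Fgg, the gamma chain, did not share this. It read -4.04 and -3.72 in TKO_26 and -4.0 and -4.37 in TKO_29, against -4.74 and -4.61 in WT, on spots well above background on all 6 arrays. It was 1.74-fold higher than WT in TKO_26 and 1.40-fold higher in TKO_29, with no overlap and no call. Fga, the alpha chain, lay between -11.48 and -8.17 in the TKO arrays and between -9.99 and -8.91 in WT, not well above background on either probe. The 3 chains are secreted as 1 hexamer with a pair of each chain, and well above background in WT were the beta and gamma chains.

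Around Fgb, in genes chosen after the values were seen, the differences were small beside that of Fgb. Rbm46 differed from WT by 0.63 in TKO_26 and 1.59 in TKO_29, Plrg1 by 0.22 in TKO_26 and 0.26 in TKO_29, and Sfrp2 by -0.68 in TKO_26 and -0.46 in TKO_29. Map9, on the far side of Rbm46, differed by -0.51 in TKO_26 and -0.77 in TKO_29. None of these was called, and the median of chromosome 3 was -0.01 in TKO_26 and -0.06 in TKO_29.

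Serpinc1, the inhibitor of thrombin, was dim. It read -7.08 and -6.93 in TKO_26 and -6.93 and -7.01 in TKO_29, against -9.04 and -8.32 in WT, with 3 of the 4 TKO arrays and neither WT array well above background. It entered the fit only through TKO_29, where it was high. The log2 differences were 1.67 in TKO_26 and 1.71 in TKO_29 (SE 0.26), but the fold that the spots above background allow was at least 1.5 in TKO_29. In TKO_26, 1 of the 2 arrays was well above background, and the 1.46-fold calculated in the same way is no strict bound. The call was lost in 7 of the 15 alternatives in which the gene was fitted, among them without TKO_26 replicate 1 (mean difference 1.73), without TKO_29 replicate 1 (1.67) and without TKO_29 replicate 2 (1.71).

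Fgl1 had the highest log2 difference of the 8 genes fitted. Its brightest probe read -4.35 and -4.18 in TKO_26 and -4.27 and -4.47 in TKO_29, against -8.59 and -7.56 in WT, where 1 of the 2 arrays was well above background. The TKO arrays ran from -4.47 to -4.18 and did not overlap WT, with log2 differences of 3.80 in TKO_26 and 3.70 in TKO_29 (SE 0.36), or at least 7.86-fold and at least 7.31-fold higher. The second probe read -6.66 and -5.76 in TKO_26 and -5.26 and -5.28 in TKO_29, against -8.83 and -9.77 in WT, neither above background. By that probe Fgl1 was at least 4.87-fold higher in TKO_29. In TKO_26, 1 of the 2 arrays was well above background, and the 2.53-fold calculated in the same way is no strict bound. Both probes gave the same direction.

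Fgl1 lies on chromosome 8, as do F7 and F10, and that chromosome stood apart in both knockout lines. Its 783 genes in the fit had a median difference from WT of 0.45 in TKO_26 and 0.43 in TKO_29, against medians of -0.09 to 0.04 in TKO_26 and -0.12 to 0.03 in TKO_29 for the other 19 chromosomes with 20 or more genes. Called higher were 9.83% of the genes on chromosome 8 and 3.83% of all other features in the fit, which include unnamed features with no chromosome assigned. Relative to the chromosome's median the mean difference of F10 was -1.14 and that of Fgl1 was 3.31, which rests on a WT signal above background on 1 of 2 arrays. The part of the chromosome's shift in these values was not tested.

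The 20 named genes in the fit nearest to Fgl1 in gene order were taken, 10 on each side, leaving out predicted, clone and accession-only names. They had a median difference of 0.47 in TKO_26 and 0.64 in TKO_29, and 15 of them were above 0. Called higher were Zdhhc2 (1.01 in TKO_26 and 1.79 in TKO_29), Mtmr7 (1.66 in TKO_26 and 1.63 in TKO_29) and Pdgfrl (1.71 in TKO_26 and 1.86 in TKO_29). Fam149a was called lower (-1.08 in TKO_26 and -1.001 in TKO_29). The nearest of these on either side were Mtus1, at -0.10 in TKO_26 and -0.37 in TKO_29, and Pcm1, at 1.04 in TKO_26 and 0.70 in TKO_29. The mean differences of the 20 ran from -1.05 to 1.79, and Fgl1, with 1 of 2 WT arrays above background, was at 3.75.

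**Figure D2:**
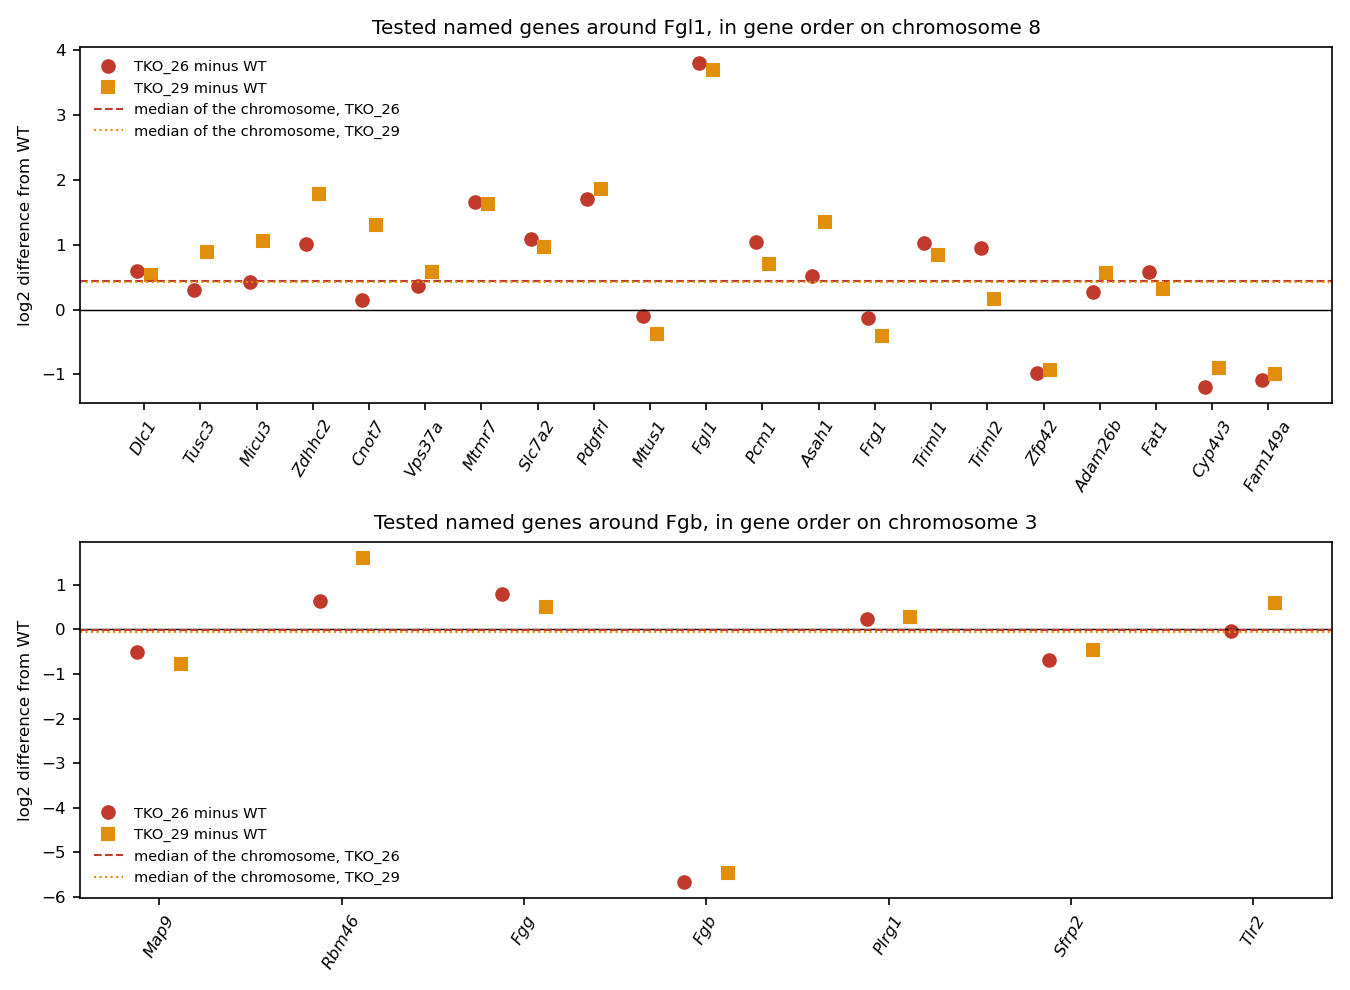
Log2 difference from WT (vertical axis) of named fitted genes in gene order (horizontal axis, not to scale) around Fgl1 on chromosome 8, upper panel, and Fgb on chromosome 3, lower panel, with circles for TKO_26, squares for TKO_29 and dashed and dotted lines for the chromosome's medians. Fgl1, at 3.80 in TKO_26 and 3.70 in TKO_29, stands above its neighbours, and Fgb, at -5.66 in TKO_26 and -5.46 in TKO_29, below its own.

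The genes whose 6 array values lay nearest to those of Fgl1, after subtraction of the WT mean, were sought among 13973 named genes. Saa3, an acute phase apolipoprotein, was at a Euclidean distance of 0.642 with differences of 3.65 in TKO_26 and 3.43 in TKO_29. Slc22a6, a renal organic anion transporter, was at 0.643, Nlrp4f, of the NLR family, at 0.647, and Bhmt, a methyltransferase of liver homocysteine metabolism, at 0.742. Got1l1, on chromosome 8 like Fgl1, was at 0.880 with 3.26 in TKO_26 and 3.74 in TKO_29. These distances rest in part on WT spots near background: of the 2 WT arrays, 0 were well above background for Slc22a6 and Bhmt, 1 for Fgl1, Saa3 and Got1l1, and 2 for Nlrp4f, so the order of nearness is not firm.

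The contrast between the knockout lines was not used to choose the genes and could be tested. None of the 8 genes fitted was called between TKO_26 and TKO_29 (limma, at least 2-fold and adjusted p under 0.05), as was none of the table (0%), although 22.4% of the table and 2 of the 8 genes had an unadjusted p under 0.05. F10 was 0.92 higher in TKO_26 (SE 0.20, limma adjusted p = 0.101) and F2 was 0.41 higher in TKO_26 (SE 0.16, limma adjusted p = 0.223). Fgl1 differed by 0.10 (SE 0.36, limma adjusted p = 0.874), Serpinc1 by -0.04 (SE 0.26, limma adjusted p = 0.937) and Fgb by -0.20 (SE 0.19, limma adjusted p = 0.535). The other 3, F3, F5 and Fgg, differed by 0.27 to 0.32 (limma adjusted p 0.287 to 0.364). Serpinc1 entered the fit only through TKO_29. In TKO_26, Serpinc1 was well above background on 1 of 2 arrays and Fgb on neither, so their tests rest in part on signals near background. The tests between the lines do not show that the lines are alike.

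Genes of the rest of the clotting system, listed with earlier results of these data known, were set beside the 10 by the same rule and fit. From here on, a fold given without a line compares the mean of all TKO arrays with WT, and single lines can differ from it. Over all features the median difference from WT was -0.04, and 6.59% were called lower and 4.05% higher. Of 10 other clotting factors, 6 were fitted, with a median of -0.26. Vwf, the platelet-binding carrier of factor VIII, was 3.35-fold lower (-1.71 in TKO_26 and -1.77 in TKO_29, limma adjusted p = 0.0041 and 0.00309); the endothelial marker sums given above were lower too, and their part in this value was not tested. Kng1, a kininogen of the contact pathway, was 5.20-fold higher (2.44 in TKO_26 and 2.31 in TKO_29, limma adjusted p = 0.00226 and 0.00225). Its near-identical copy Kng2, at 0.57 in TKO_26 and 1.23 in TKO_29, was not called, and probes may not separate them. Kng2 was well above background on 1 of 2 arrays in TKO_26 and in WT, so its differences rest in part on signals near background. On line averages neither Vwf nor Kng1 was called (limma adjusted p = 0.103 for Vwf and 0.0669 for Kng1).

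Of 13 anticoagulant genes, 9 were fitted, with a median of -1.03, 2 called lower and 0 higher, or 1 lower without either WT array. Procr, the endothelial protein C receptor, was 5.77-fold lower (-2.53 in both lines), and Tfpi, the inhibitor of the tissue factor pathway, 2.46-fold lower (-1.12 in TKO_26 and -1.48 in TKO_29). Of 9 fibrinolysis genes, 7 were fitted, with a median of -1.16 and 2 called lower, a count that ran from 0 to 3 over the alternatives (0 without TKO_29 replicate 1, TKO_29 replicate 2 or WT replicate 1, and 1 without TKO_26 replicate 2 or WT replicate 2). They were Plg, the precursor of the fibrin-cutting plasmin, and Cpb2, which slows fibrinolysis. Plg was above background in WT alone, at least 1.30-fold lower in TKO_26 and at least 5.09-fold lower in TKO_29. Cpb2 was 3.20-fold lower in TKO_29. In TKO_26 neither array was well above background for Cpb2, and its bound showed no fall. Of 9 thrombin receptor and vitamin K genes, 7 were fitted, with a median of 0.08, and F2r, the main thrombin receptor, was 3.64-fold lower. Of 18 other genes with a fibrinogen domain, 7 were fitted, with a median of -0.06, and 3 were called lower: Angpt1 (at least 6.82-fold) and Angpt2 (2.14-fold), ligands of the endothelial receptor Tek, and Mfap4 (3.30-fold), a microfibril protein. Called higher were 0 of the 7 fitted genes of that family, and its other genes could not be called.

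Other secreted proteins of liver and yolk sac went both ways, with more called lower than higher. Of 35 listed, 33 had a probe and 22 were fitted, with a median of -0.70, 9 called lower and 3 higher, or 5 lower without WT replicate 1. Ttr, the thyroxine carrier, was 40.4-fold lower, Rbp4, the retinol carrier, 18.4-fold lower, Afp, the fetal serum protein, at least 22.6-fold lower, and Apob, of lipoprotein particles, at least 12.5-fold lower. Among the 3 higher, named after their values were seen, were Gc, the vitamin D carrier (3.87-fold), and Vtn, or vitronectin (3.20-fold). Alb was not well above background on any array. Afp and Apob were well above background in WT alone. Requiring all 6 arrays above background left 4 genes of this list called lower and 3 higher. Fgl1 and Serpinc1 were higher and Fgb lower by the values that chose them, so nothing is read from setting them beside this list.

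Fibrinogen genes are induced by IL6 in the liver, and acute phase and IL6 signalling genes were looked at for that reason. Of 14, 10 were fitted, with a median of -0.21. Saa3 was at least 8.70-fold higher and Hpx, which binds heme, at least 6.80-fold lower. Among 18 transcription factors of endoderm and liver, 16 were fitted, with a median of -0.46, 5 called lower and 0 higher, or 3 lower without WT replicate 1. Hnf4a, a regulator of hepatocyte and visceral endoderm genes, was 10.1-fold lower (-3.48 in TKO_26 and -3.20 in TKO_29), Gata4 5.82-fold lower, Sox7 at least 35.4-fold lower and the coactivator Ppargc1a at least 7.91-fold lower.

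**Figure D3:**
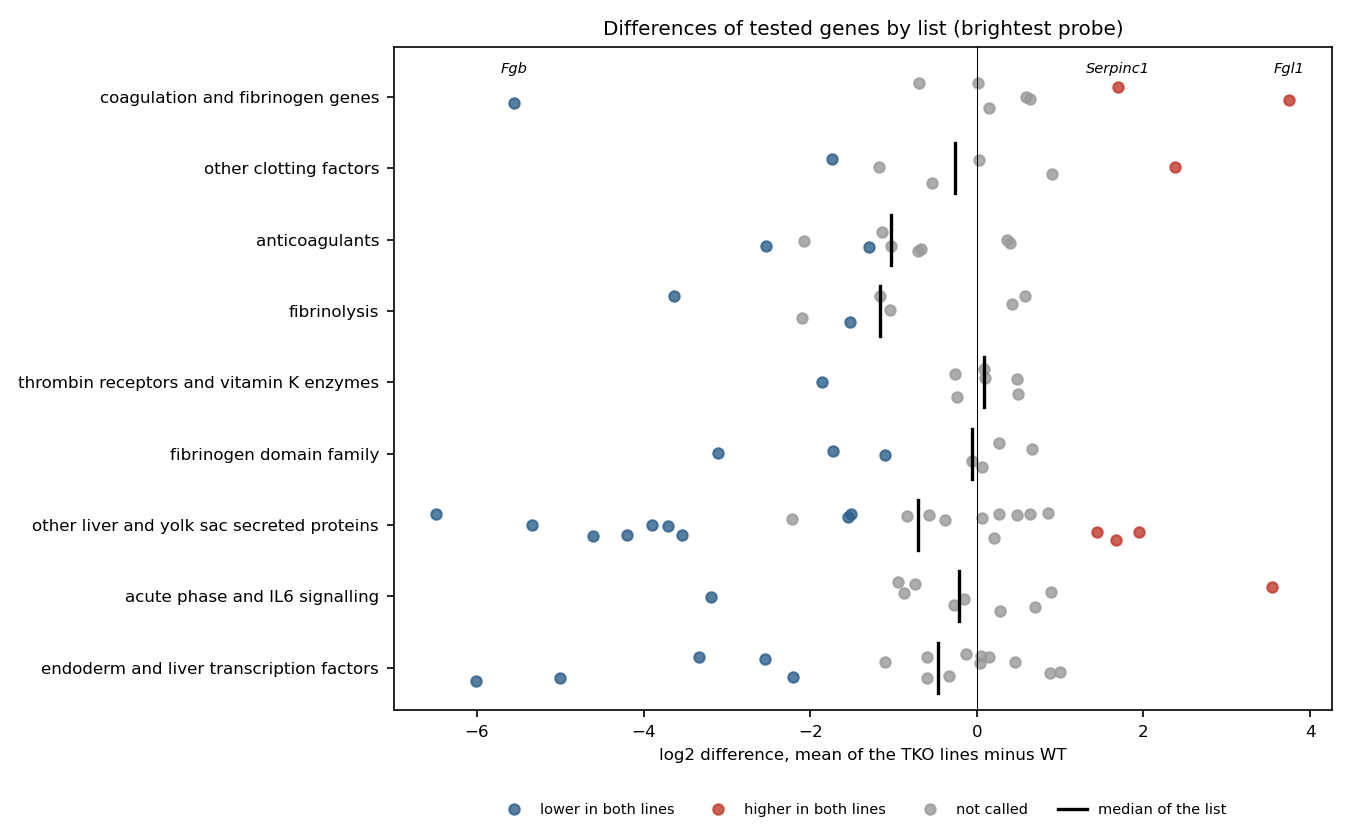
Log2 difference of the mean of the TKO lines from WT (horizontal axis) for every fitted gene of the coagulation genes and the 8 other lists (rows), blue where called lower in both lines, red where called higher and grey otherwise, with a bar at the median of each of the 8 other lists. Fgb lies at -5.56, Serpinc1 at 1.69 and Fgl1 at 3.75, and the medians of the other lists run from -1.16 to 0.08.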

How the data were processed

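RNA from the embryoid bodies was converted to Cy3-labelled cRNA, per the labels' protocols. The spot intensity deposited for every array is the processed signal of Agilent Feature Extraction 10.5.1.1, per the file headers, with background subtracted and no normalisation between arrays. A matrix of log2 values was deposited as well, without a stated method in the labels or headers. Its columns followed the log2 median signal of their own array (r 0.995 to 1.00), their medians were 6.86 to 6.89, and they served as an alternative. For TKO_29 replicate 1 the highest r with another array was as high as its own, so that column is hardly told apart.

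Control spots and outlier spots were left out, which removed 263 of 55681 probes, and repeated spots were averaged. Probes were named through accessions in a RefSeq gene table (GRCm38.p6), and 27365 (49.4%) of those kept had a symbol. From log2 signals the 75th percentile of the same array was subtracted, taken over 19173 probes that passed the background flag on all 6 arrays. Over all spots other than controls, the unscaled 75th percentile ran from 507 to 2208. Lines were compared in R 4.3.3 by lmFit and eBayes of limma 3.58.1, with 3 residual degrees of freedom, or 1 on line averages, where WT is assumed to vary like the TKO lines. A probe entered if some line had it well above background on each of its arrays, and the brightest stood for its gene. The fit was tested on simulated data. The number of arrays limits the precision.

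The genes and lists were chosen with earlier results of these data known. Named were the 10 genes on every probe, the Tet genes, up to 4 called genes of each list by size of difference, 10 named fitted genes on each side of Fgl1 and the 5 genes nearest to it in profile. Other genes were named outside this rule with the values known, among them Gc, Vtn, Kng2 and some genes near Fgb in gene order or in profile. Alternatives were normexp background correction (offset 50), other scalings, the matrix, other filters, probe means, a variance trend, chromosome-centred values, a replicate block and each array left out. Replicate numbers did not pair the arrays. No protein sequences were used here. Some planned items are not reported here.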

Additional observations from a re-analysis of the deposited data

How the results depend on the processing

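Fgb was called lower and Fgl1 higher in the 15 alternatives in which they were fitted, which is no support, since the same signals chose the genes; both were too dim for a filter on all 6 arrays. The mean difference of Fgl1 ran from 1.96 (normexp) to 4.27 (without WT replicate 2) and was 2.53 on the matrix values, and that of Fgb from -5.72 to -3.52 (normexp), with -3.74 on the matrix values. Serpinc1 had a mean difference of 0.25 with normexp, 0.62 on the matrix values and 2.15 after quantile normalisation, and was not called in any of these. With normexp, 1 of the 10 genes was called higher, 0 fibrinolysis genes lower and 1 secreted protein gene higher. Quantile normalisation gave 1 of the 10 higher, 0 on line averages and 1 fibrinolysis gene lower. The matrix gave 1 of the 10 higher, 1 anticoagulant lower and 1 fibrinolysis gene lower. Requiring all 6 arrays above background, which removes dim probes, gave 0 of the 10 lower, 0 higher and 0 on line averages, with 0 fibrinolysis genes, 4 secreted protein genes, 0 acute phase genes and 3 transcription factors lower, and 0 acute phase genes higher. Without a filter, 1 of the 10 was higher, 0 were called on line averages, and 1 anticoagulant, 0 fibrinolysis genes and 3 transcription factors were lower. With the mean over probes, 2 of the 10 were lower (F10 and Fgb) and 1 transcription factor higher. The variance trend gave 1 fibrinolysis gene lower. Leaving out 1 array at a time gave 1 of the 10 lower, 1 to 2 higher and 0 to 2 on line averages, 1 to 3 anticoagulants, 0 to 2 fibrinolysis genes, 2 to 3 genes of the fibrinogen domain family, 5 to 10 secreted protein genes and 3 to 5 transcription factors lower, 0 to 1 acute phase genes lower and 1 to 2 higher, and 2 to 3 secreted protein genes higher. Of all features, 1412 were lower and 867 higher, against 891 and 310 with normexp, where 25.8% of calls were higher in place of 38.0%, and 893 and 385 without a filter. Calls between the TKO lines were 0 in the table and ran to 246 with the matrix, 337 with all 6 arrays above background, 483 with the variance trend and 1514 without TKO_26 replicate 2, while 0 of the 10 genes were called between the lines in all 16 alternatives. Line averages gave 194 calls, and 0 to 1806 over the alternatives. Deviations of arrays with the same number correlated at -0.43 (TKO_26 with TKO_29), 0.38 (TKO_26 with WT) and -0.32 (TKO_29 with WT), so the numbers do not pair the arrays. With a replicate block 1327 features were lower and 752 higher, 1 of the 10 genes was lower and 2 higher, and 0 fibrinolysis genes were lower. Causes were not tested.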

Other observations

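The genes whose 6 array values lay nearest to those of Fgb, sought after the values were seen, came from several tissues. Tnni1, a troponin of slow skeletal muscle and embryonic heart, was at a Euclidean distance of 0.461 with log2 differences from WT of -5.79 in TKO_26 and -5.56 in TKO_29. Cd34, a surface protein of endothelial and blood progenitor cells, was at 0.552 with -5.39 in TKO_26 and -5.72 in TKO_29. Ghrl, which encodes ghrelin, was at 0.557 with -5.98 in TKO_26 and -5.45 in TKO_29. Ttr, secreted by visceral endoderm and liver, was at 0.707 with -5.56 in TKO_26 and -5.11 in TKO_29. Fgb itself was well above background on 2 of the 4 TKO arrays, Ghrl on 3 and Tnni1, Cd34 and Ttr on 4, so these distances rest in part on signals near background.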
